A study of Mus musculus with 6 samples.

Results

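The 10 genes described here encode the G1 cyclins, their kinases and their inhibitors. They are the D cyclins Ccnd1, Ccnd2 and Ccnd3, the E cyclins Ccne1 and Ccne2, the D cyclin kinases Cdk4 and Cdk6, and the Cip/Kip inhibitors Cdkn1a (p21), Cdkn1b (p27) and Cdkn1c (p57). They were chosen by gene symbol, and all 10 were found among the 23366 symbols of the expression table. RNA-seq was done on epithelial cells isolated from the submandibular gland, a major salivary gland, of mice at 12 weeks of age. The knockout of p63 and the wild type had 3 libraries each, with no further treatment named. The study concerned p63, a transcription factor of basal epithelial cells encoded by Trp63, and the proliferative potential of salivary progenitor cells. The sources used here do not give the Cre driver, the deleted exons, the sex or the strain. Nothing says how many mice or glands went into a library, so the p-values measure only the spread between these libraries.

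In early G1 the D cyclins bind Cdk4 or Cdk6 and begin the phosphorylation of the retinoblastoma family of pocket proteins. This releases E2F transcription factors, which induce the E cyclins and the genes of DNA replication, and cyclin E with Cdk2 then completes the step into S phase. Cip/Kip proteins bind cyclin-kinase complexes and hold cyclin E-Cdk2 in check, while INK4 proteins bind Cdk4 and Cdk6 alone. Much of this control acts on protein levels, which RNA does not show. Adult salivary gland epithelium is mostly made of cells that have left the cycle.

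Expression is given in TPM, a transcript abundance corrected for gene length and scaled to 1000000 per library, so levels of different genes can be set side by side, but the sequencing depth is unknown. Fold changes are knockout over wild type on the scale of log2(TPM + 1), fitted with limma over the 11268 genes that reached 1 TPM in 3 or more libraries. A call is an adjusted p under 0.05 with Benjamini-Hochberg adjustment over all of these genes. Trp63 itself was low, at 1.59, 0.816 and 1.76 TPM in knockout libraries 1, 2 and 3, against 3.48, 1.85 and 3.68 TPM in wild-type libraries 1, 2 and 3, and it was not called (log2 fold change -0.74, SE 0.27, adjusted p = 0.27, and -0.85 without knockout library 3, adjusted p = 0.040). Gene-level TPM does not show which Trp63 exons the reads came from. Knockout library 3 stood apart from the rest. Its median over all genes tested lay 0.29 below the wild-type mean on the log2 scale (-0.29), while knockout libraries 1 and 2 lay above it (0.27 and 0.24). It also had the fewest genes at 1 TPM, 10634 against 11129 to 11235 in the other 5 libraries. The 50 most abundant genes held 80.0% of its TPM, against 68.8% to 75.8% in the others. Its median-of-ratios scaling factor was 0.76, against 0.95 to 1.19 in the others. Whether groups overlap is judged on TPM without rescaling, so these statements also depend on the shift of knockout library 3. Fold changes without this library are therefore given beside those from all 6 for the members and for the other genes of the pathway that are named. The epithelial keratin partners Krt8 and Krt18 were abundant in every library, at no less than 160 and 272 TPM in the knockout and 161 and 368 TPM in the wild type, and the acinar water channel gene Aqp5 ranged from 150 to 202 TPM in the knockout and from 173 to 211 TPM in the wild type.

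Of the 10 genes, 8 were tested, and Ccne2 and Cdk6 lay under the filter. Of these 8, limma called 0 with all 6 libraries, where 0.390% of all genes were called. At an unadjusted p under 0.05 there were 4 of the 8 (Ccnd1, Ccnd2, Ccne1 and Cdk4), against 15.4% of all genes. The knockout and wild-type values did not overlap for 5 of the 8, which were lower in the knockout for Ccnd1, Ccnd2 and Cdk4 and higher for Ccne1 and Cdkn1a. Over all genes tested the groups did not overlap for 21.1% (5.42% higher and 15.6% lower in the knockout). Without knockout library 3, 7 of the 8 were called, 4 higher and 3 lower. That fit called 45.5% of all genes (33.8% higher and 11.7% lower), and its median over all genes shifted upward by 0.17 on the log2 scale, so the members are read against that share. Fits that weight libraries by their fit to the model (array weights) called all 8 tested, 5 higher and 3 lower, against 42.8% of all genes (30.9% higher and 11.9% lower).

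**Figure D1:**
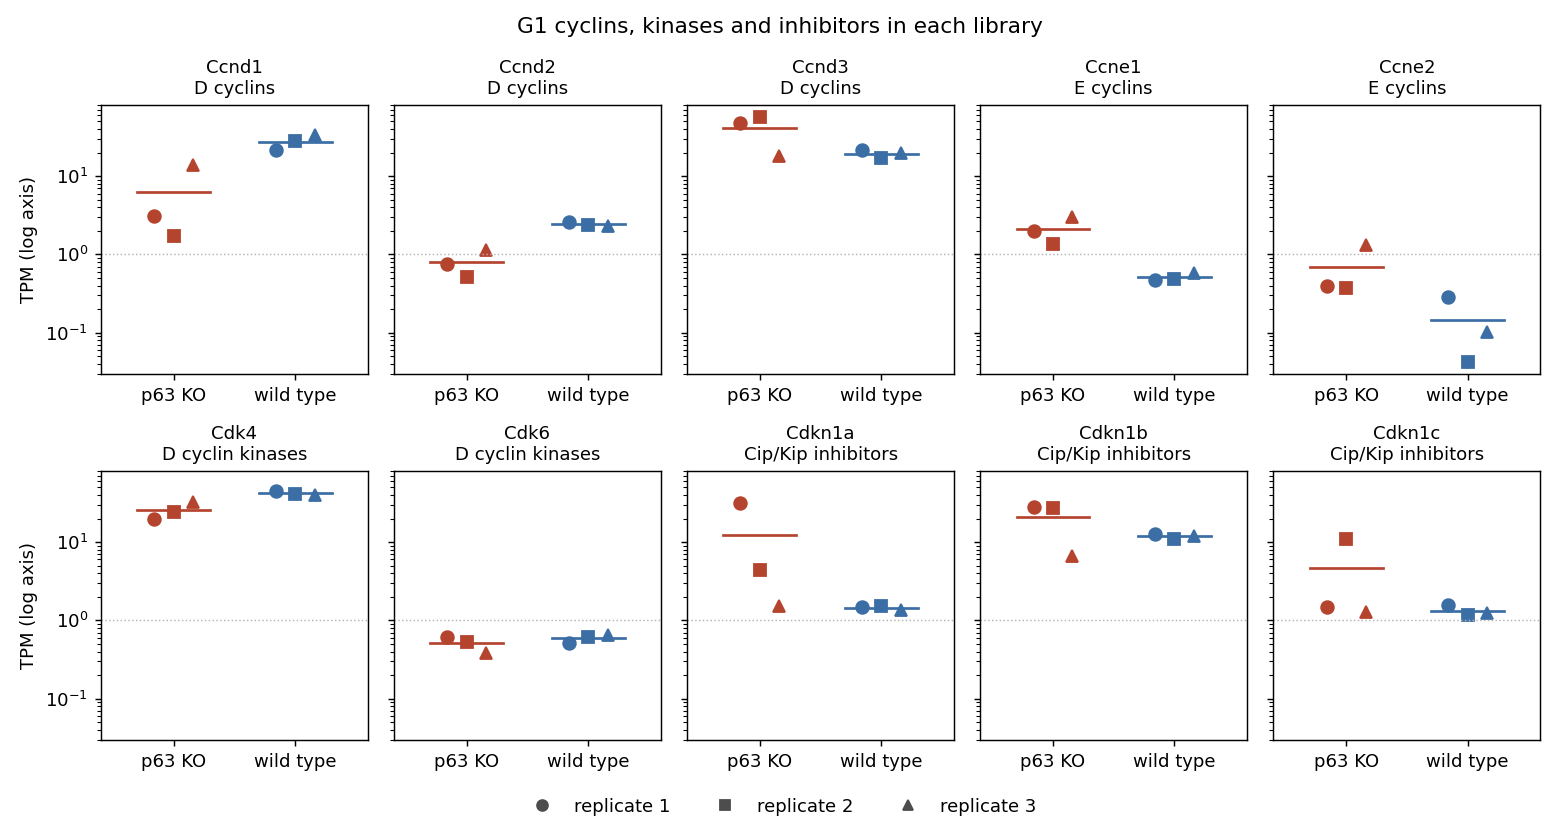
TPM of each of the 10 genes in the 3 p63 knockout libraries (red, left) and the 3 wild-type libraries (blue, right) on a log axis. Symbols give the replicate number within each genotype, in accession order, horizontal bars are group means, and the dotted line is 1 TPM. Ccnd1, Ccnd2 and Cdk4 lie lower and Ccne1 higher in every knockout library. Knockout library 3 departs from the other knockout libraries for Ccnd1, Ccnd3, Ccne2 and Cdkn1b, and for Cdkn1a knockout library 1 lies far above all others.

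The D cyclins did not share a direction. Cyclin D1, the D cyclin best known as a sensor of growth factor signals, had Ccnd1 levels of 3.13, 1.74 and 13.9 TPM in knockout libraries 1, 2 and 3, against 21.8, 27.8 and 33.3 TPM in wild-type libraries 1, 2 and 3. Every knockout library lay below every wild-type library, and knockout library 3 lay nearest to them. The means were 6.25 ± 6.64 TPM in the knockout and 27.6 ± 5.75 TPM in the wild type (n = 3 each, SD), for a log2 fold change of -2.35 (SE 0.58, adjusted p = 0.12). Without knockout library 3 the log2 fold change of Ccnd1 was -3.07 and passed (adjusted p = 0.00041), while over the 17 alternatives its adjusted p ranged from 0.00036 to 0.39. Cyclin D2, the D cyclin of many blood and gonadal cells, was scarce: Ccnd2 stood at 0.766, 0.518 and 1.14 TPM across the knockout libraries and at 2.59, 2.34 and 2.31 TPM across the wild-type libraries. Its groups did not overlap either, and the wild-type libraries lay close together. The log2 fold change of Ccnd2 was -0.93 (SE 0.19, adjusted p = 0.085), and -1.06 without knockout library 3 (adjusted p = 0.0029, over 16 alternatives 0.0016 to 0.37). It reached the filter through the 3 wild-type libraries and only 1 of the knockout libraries.

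Cyclin D3, the D cyclin that is often kept in differentiated cells, was higher in part of the knockout. Ccnd3 measured 48.4, 57.0 and 18.0 TPM in knockout libraries 1, 2 and 3, against 21.6, 16.9 and 19.8 TPM across the wild-type libraries. Knockout library 3 fell inside the wild-type range, so the groups overlapped in TPM without rescaling. Ccnd3 averaged 41.1 ± 20.5 TPM in the knockout and 19.4 ± 2.37 TPM in the wild type (n = 3 each, SD), with a log2 fold change of 0.90 (SE 0.41, adjusted p = 0.35), and without knockout library 3 the log2 fold change was 1.39 (adjusted p = 0.0010, over 17 alternatives 0.0010 to 0.71). Since TPM is per length, the D cyclins can be added. Their sum was 52.3, 59.3 and 33.0 TPM across the knockout libraries and 46.0, 47.1 and 55.4 TPM across the wild-type libraries, and these ranges overlapped. What differed was the makeup of that sum. Ccnd3 made up 92.5%, 96.2% and 54.5% of it in the knockout libraries and 47.0%, 35.9% and 35.8% in the wild-type libraries, with no overlap. Ccnd1 made up 5.98%, 2.94% and 42.1% in the knockout, against 47.4%, 59.1% and 60.1% in wild type. Ccnd2 was never above 3.46% in the knockout or 5.63% in wild type. The ratio of Ccnd3 to Ccnd1 TPM was 15.5, 32.8 and 1.29 in the knockout libraries, against 0.993, 0.608 and 0.595 in the wild-type libraries.

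**Figure D2:**
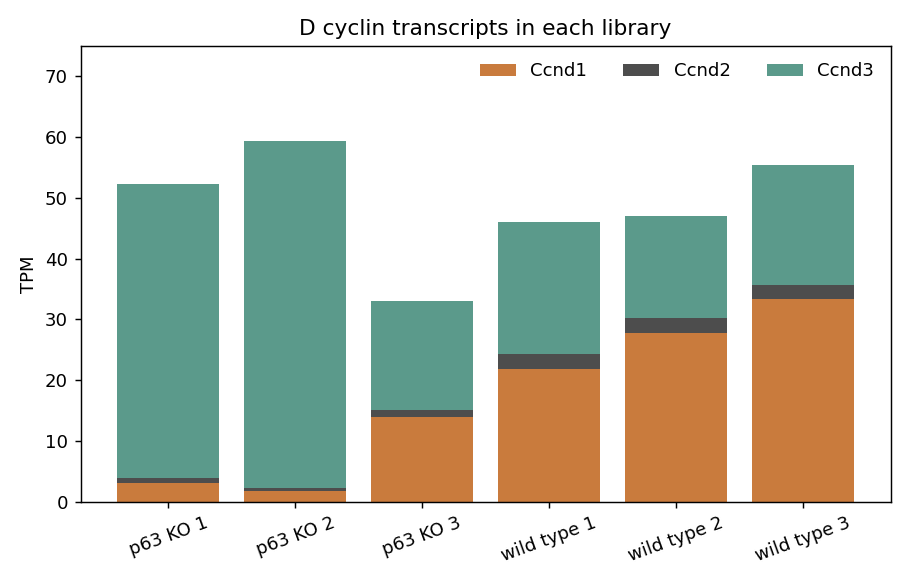
Stacked bars of Ccnd1, Ccnd2 and Ccnd3 TPM in each of the 3 p63 knockout and 3 wild-type libraries, with the full bar as the D cyclin sum. Knockout libraries 1 and 2 have sums of 52.3 and 59.3 TPM that are almost all Ccnd3, knockout library 3 has 33.0 TPM, and the wild-type libraries have 46.0 to 55.4 TPM with Ccnd1 as 47.4% to 60.1%.

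The E cyclins were low everywhere and higher in the knockout. Cyclin E1 activates Cdk2 late in G1, and Ccne1 came to 2.002, 1.35 and 3.04 TPM in knockout libraries 1, 2 and 3, against 0.474, 0.489 and 0.583 TPM in wild-type libraries 1, 2 and 3. All knockout libraries lay above all wild-type libraries, with knockout library 3 the highest, and the groups also stood apart with that library left out. The means were 2.13 ± 0.854 TPM in the knockout and 0.515 ± 0.0590 TPM in the wild type (n = 3 each, SD). The log2 fold change of Ccne1 was 1.01 (SE 0.23, adjusted p = 0.094), and 0.81 without knockout library 3 (adjusted p = 0.011, over 16 alternatives 0.0076 to 0.39). Because the added 1 TPM is larger than the wild-type values, this fold change depends on it, and it was 1.79 with 0.1 TPM added. Ccne1 passed the filter on low values only through the knockout libraries, so that its being tested already required a high knockout. Cyclin E2 is the second activator of Cdk2, and Ccne2 reached 1 TPM in a single library. It measured 0.393, 0.368 and 1.32 TPM across the knockout libraries and 0.288, 0.0425 and 0.101 TPM across the wild-type libraries. The groups did not overlap, but Ccne2 was not tested, and its log2 difference was 0.53. For both E cyclins knockout library 3 was the highest of all 6 libraries.

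Cdk4 supplied nearly all transcripts of the D cyclin kinases, and it was lower in the knockout. Its level was 19.99, 24.1 and 32.6 TPM in knockout libraries 1, 2 and 3, against 45.1, 40.9 and 40.0 TPM in wild-type libraries 1, 2 and 3. No knockout library reached the lowest wild-type library. Cdk4 averaged 25.6 ± 6.43 TPM in the knockout and 42.0 ± 2.71 TPM in the wild type (n = 3 each, SD), with a log2 fold change of -0.72 (SE 0.23, adjusted p = 0.21). The log2 fold change of Cdk4 was -0.90 without knockout library 3 (adjusted p = 0.0031, over 17 alternatives 0.0031 to 0.66). Cdk6, the other partner of the D cyclins, ranged from 0.381 to 0.614 TPM in the knockout and from 0.516 to 0.659 TPM in the wild type. It stayed under 1 TPM in all 6 libraries and was not tested, and its groups overlapped. Cdk4 thus made up 97.02% to 98.8% of the summed kinase TPM in the knockout and 98.4% to 98.9% in wild type.

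The summed Cip/Kip inhibitors were higher in knockout libraries 1 and 2 and lower in knockout library 3 than in any wild-type library, and the members differed in which knockout libraries were high. p21, which p53 induces after DNA damage, had Cdkn1a levels of 31.2, 4.46 and 1.55 TPM in knockout libraries 1, 2 and 3, against 1.49, 1.52 and 1.37 TPM in wild-type libraries 1, 2 and 3. The groups did not overlap, yet knockout library 3 lay barely above the highest wild-type library while knockout library 1 lay far above all others. The log2 fold change of Cdkn1a was 1.64 (SE 0.81, adjusted p = 0.37). It was 0.60 without knockout library 1 (adjusted p = 0.61), 1.88 without knockout library 2 (adjusted p = 0.56) and 2.43 without knockout library 3 (adjusted p = 0.020), and over the 16 alternatives the adjusted p ranged from 0.011 to 0.71. p27, the inhibitor that accumulates in resting cells, was the most abundant of the 3 in every library but knockout library 1. Cdkn1b measured 28.0, 27.3 and 6.65 TPM across the knockout libraries and 12.8, 10.8 and 12.1 TPM across the wild-type libraries. Here knockout libraries 1 and 2 lay above the wild-type range and knockout library 3 below it. Of all genes tested, 56.5% and 55.2% lay above that range in knockout libraries 1 and 2. In knockout library 3, 66.9% lay below it. The log2 fold change of Cdkn1b was 0.52 with all libraries (SE 0.50, adjusted p = 0.59). It was 0.19 without knockout library 1, 0.21 without knockout library 2 and 1.15 without knockout library 3 (adjusted p = 0.92, 0.91 and 0.0011, over 17 alternatives 0.0011 to 0.92). p57 is an imprinted inhibitor expressed from the maternal copy. Cdkn1c was 1.496, 11.0 and 1.29 TPM across the knockout libraries and 1.55, 1.16 and 1.26 TPM across the wild-type libraries, so that only knockout library 2 lay outside the wild-type range. Its log2 fold change of 0.82 (SE 0.59, adjusted p = 0.48) became 0.05 without that library and 1.24 without knockout library 3 (adjusted p = 0.95 and 0.12, over 16 alternatives 0.021 to 0.95). Summed over the 3 genes, Cip/Kip transcripts came to 60.8, 42.8 and 9.49 TPM across the knockout libraries, against 15.8, 13.5 and 14.7 TPM across the wild-type libraries.

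**Figure D3:**
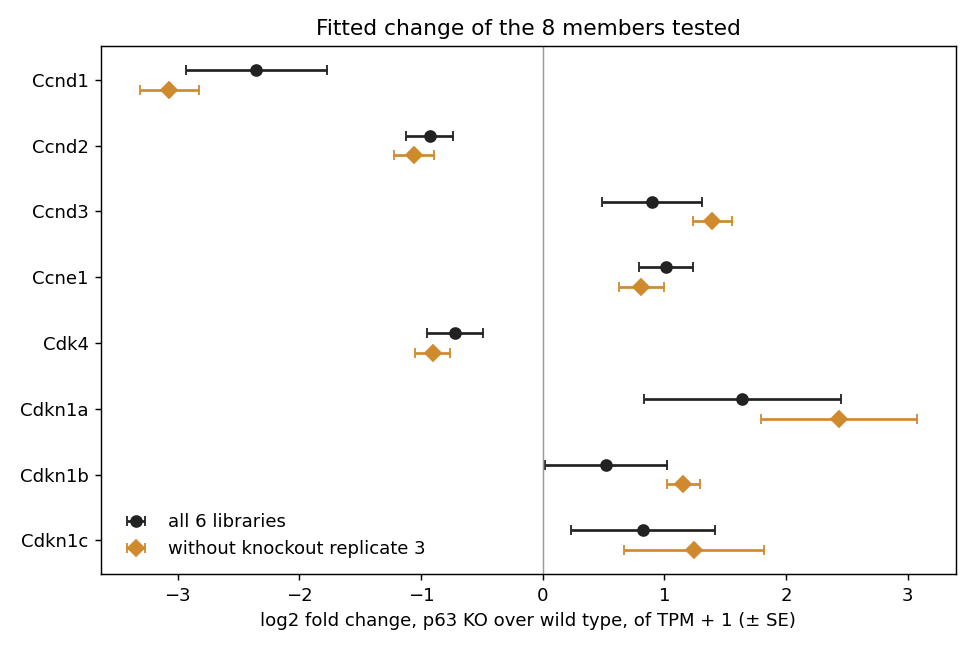
Log2 fold change of TPM + 1, p63 knockout over wild type, with its SE for the 8 genes tested, from all 6 libraries (black circles) and without knockout replicate 3 (orange diamonds). Each of the 8 keeps its sign, the range widening from -2.35 (Ccnd1) and 1.64 (Cdkn1a) with all libraries to -3.07 and 2.43 without knockout replicate 3.

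Start-site sequences were searched for every member with a window. RefSeq windows (GRCm38.p6, not the mm9 build of the expression values) were held for 6 of the 10 genes, as 8 windows, and the 250 bases before each start were searched on both strands. The 4 printed below, chosen after the search as those of the inhibitors p21 and p27 and of a D and an E cyclin, belong to Cdkn1a (chr17:29090729-29090978, plus strand, the upstream of 2 starts), Ccnd3 (chr17:47504801-47505050, plus strand, the upstream of 2 starts), Cdkn1b (chr6:134920151-134920400, plus strand) and Ccne1 (chr7:38107491-38107740, minus strand). They are given 5′ to 3′ along the gene, with every match in capitals. Gene-level TPM does not show which start was used.
Cdkn1a: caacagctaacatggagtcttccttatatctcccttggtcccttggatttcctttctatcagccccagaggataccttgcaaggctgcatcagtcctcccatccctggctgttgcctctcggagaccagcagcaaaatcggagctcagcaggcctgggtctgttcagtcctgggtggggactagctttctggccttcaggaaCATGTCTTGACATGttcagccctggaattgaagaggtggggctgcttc
Ccnd3: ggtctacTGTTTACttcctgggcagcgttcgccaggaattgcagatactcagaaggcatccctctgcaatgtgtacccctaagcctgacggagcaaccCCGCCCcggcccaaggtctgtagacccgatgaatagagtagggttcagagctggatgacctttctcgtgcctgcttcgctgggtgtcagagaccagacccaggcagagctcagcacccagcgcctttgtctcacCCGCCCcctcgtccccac
Cdkn1b: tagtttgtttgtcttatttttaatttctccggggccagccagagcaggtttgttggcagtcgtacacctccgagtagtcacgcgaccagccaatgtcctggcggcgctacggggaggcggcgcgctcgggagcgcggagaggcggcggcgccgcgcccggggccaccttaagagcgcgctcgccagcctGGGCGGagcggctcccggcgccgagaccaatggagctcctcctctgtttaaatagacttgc
Ccne1: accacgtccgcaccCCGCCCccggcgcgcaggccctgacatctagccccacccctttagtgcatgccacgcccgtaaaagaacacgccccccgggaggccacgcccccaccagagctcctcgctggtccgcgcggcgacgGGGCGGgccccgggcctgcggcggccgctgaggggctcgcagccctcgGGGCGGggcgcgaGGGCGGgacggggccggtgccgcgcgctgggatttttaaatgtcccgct
The capitals in the Cdkn1a window are CATG, 6 further bases and CATG again, the paired core of the site that the p53 family, p63 included, is known to bind. It began 48 bases before the upstream start and did not overlap another motif. The window of the other Cdkn1a start held GC boxes and no such core. Of all 32851 RefSeq windows of this length 0.490% held the core, against 1 of the 8 windows here. The Ccnd3 window held a forkhead core (GTAAACA on the minus strand, in 3.17% of all windows) 243 bases before the upstream start, apart from its GC boxes. The window of the other Ccnd3 start held a GC box and no forkhead core. GC boxes (GGGCGG on either strand) were the only motif searched that the Cdkn1b and Ccne1 windows held, and 6 of the 8 windows had 1 or more, against 32.7% of all windows. The E2F letters TTTCCCGC, TTTCGCGC, TTTGCCGC and TTTGGCGC were found in 0 of the 8 windows and in 1.86% of all windows. A match of letters does not show binding, and no match says only that these letters are not in the window.

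Ordered by mean TPM, the wild-type libraries ran Cdk4, Ccnd1, Ccnd3, Cdkn1b, Ccnd2, Cdkn1a, Cdkn1c, Cdk6, Ccne1 and Ccne2, spanning 42.0 to 0.144 TPM. Neighbours in this order did not overlap over the 3 libraries except Cdkn1a with Cdkn1c and Cdk6 with Ccne1. In the knockout the order was Ccnd3, Cdk4, Cdkn1b, Cdkn1a, Ccnd1, Cdkn1c, Ccne1, Ccnd2, Ccne2 and Cdk6, from 41.1 to 0.510 TPM. There the ranges of all neighbours overlapped except Ccne1 with Ccnd2, so the knockout order is not settled by 3 libraries.

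Several of these genes share exon sequence with a gene on the opposite strand (GENCODE M21), and the strand setting of the counting was not given in the sources used here. Cdk4 overlaps Tspan31, a tetraspanin gene, by 641 exon bases. Tspan31 stood at 32.3, 30.3 and 34.5 TPM across the knockout libraries and at 59.3, 57.3 and 56.7 TPM across the wild-type libraries, with log2 fold change -0.82 (adjusted p = 0.092, and -0.86 without knockout library 3, adjusted p = 0.0022, over 17 alternatives 0.0018 to 0.40), so reads of the pair may not be told apart. Ccnd3 overlaps the ribosome biogenesis gene Bysl by 361 bases, and Bysl was at 1.44, 1.12 and 4.96 TPM in the knockout and 4.33, 3.40 and 3.76 TPM in the wild type, the reverse of Ccnd3. Ccnd1 shares 1100 bases with Oraov1 (12.2, 13.0 and 7.60 TPM in the knockout, against 8.69, 8.82 and 8.14 TPM in the wild type). Ccne2 shares 609 bases with Ints8, whose 4.96 to 7.62 TPM over all libraries exceeded Ccne2 in each of them, so the low Ccne2 values are uncertain. Cdkn1c shares 625 of its 2039 exon bases with the antisense gene Gm44732, and Cdkn1a shares 273 bases with AC167363.2. Ccnd2 shares 372 bases with Gm43126 and 368 with 9330179D12Rik, and Cdk6 shares 368 with Gm17590, all antisense genes. Ccne1 and Cdkn1b overlap no other annotated exon, and Ccnd3 also has a processed pseudogene named after it.

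The other genes of the pathway were taken from 8 lists with 82 genes, of which 65 were tested. Of these 65, 2 were called higher and 0 lower by limma, against 0.0710% and 0.319% of all genes. At an unadjusted p under 0.05 there were 16 higher and 2 lower, against 562 and 1178 of all 11268 genes. Without knockout library 3, 29 of the 65 were called higher and 4 lower, against 33.8% and 11.7% of all genes. Their median log2 fold change was 0.56, against 0.09 over all genes tested, and it was 0.47 without knockout library 3, against 0.26 over all genes. Among the INK4 inhibitors, 0 of the 2 tested passed, and Cdkn2c (p18) had the lower p. It stood at 17.1, 21.4 and 6.66 TPM across the knockout libraries and at 6.07, 7.90 and 5.89 TPM across the wild-type libraries, high in the same knockout libraries as Ccnd3 and Cdkn1b (log2 fold change 0.95, adjusted p = 0.32, and 1.41 without knockout library 3, adjusted p = 0.0014, over 17 alternatives 0.0014 to 0.71). Of 6 other G1/S kinases and activators 0 passed, and Cdk2, the partner of cyclin E, had the lowest p (log2 fold change 0.60, adjusted p = 0.32, and 0.81 without knockout library 3, adjusted p = 0.0048, over 17 alternatives 0.0048 to 0.71). Its groups did not overlap, at 10.9, 12.8 and 7.28 TPM in the knockout and 6.14, 6.01 and 6.76 TPM in the wild type. Of the 10 pocket protein and E2F genes tested 0 passed. E2f5, a repressor E2F, had the lowest p, at 22.7, 17.6 and 17.8 TPM in the knockout and 30.1, 29.8 and 37.6 TPM in the wild type (log2 fold change -0.72, adjusted p = 0.17, and -0.67 without knockout library 3, adjusted p = 0.019, over 17 alternatives 0.010 to 0.58). Rbl2, which encodes the pocket protein p130 of resting cells and was chosen after its values were seen, measured 49.7, 61.1 and 10.3 TPM across the knockout libraries, against 15.6, 14.2 and 12.7 TPM across the wild-type libraries. This is the pattern of Cdkn1b, above the wild-type range in knockout libraries 1 and 2 and below it in knockout library 3 (log2 fold change 1.12, adjusted p = 0.38, and 1.89 without knockout library 3, adjusted p = 0.00048, over 17 alternatives 0.00048 to 0.74). Taken library by library, each of these placements was common, and how many genes shared the whole pattern was not counted. Of all genes tested, 56.5% and 55.2% lay above the wild-type range in knockout libraries 1 and 2. In knockout library 3, 66.9% lay below it.

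Fbxw7, which marks cyclin E protein for destruction, was lower in every knockout library. It stood at 4.81, 3.94 and 5.11 TPM in the knockout and at 11.3, 10.6 and 11.4 TPM in the wild type, with groups far apart, but it did not pass (log2 fold change -1.11, SE 0.21, adjusted p = 0.068, and -1.17 without knockout library 3, adjusted p = 0.0013, over 17 alternatives 0.0010 to 0.36). It was the gene with the lowest p among the 5 tested genes of cyclin E and Cip/Kip turnover, of which 0 passed. Of 9 tested inducers of D cyclins 0 passed (2 at an unadjusted p under 0.05), and the one with the lowest p was Fos, a subunit of the AP-1 factor. Fos was at 4.35, 1.79 and 3.15 TPM across the knockout libraries, against 0.332, 0.359 and 0.544 TPM across the wild-type libraries (log2 fold change 1.49, adjusted p = 0.064, and 1.46 without knockout library 3, adjusted p = 0.0064, over 16 alternatives 0.0027 to 0.29), and it passed the filter through the knockout libraries alone. Of 11 regulators of Cip/Kip transcription 0 passed (2 at an unadjusted p under 0.05), with Klf4, which induces p21, at 8.59, 4.84 and 3.30 TPM in the knockout and 2.40, 2.199 and 2.09 TPM in the wild type (log2 fold change 0.95, adjusted p = 0.23, and 1.21 without knockout library 3, adjusted p = 0.0055, over 16 alternatives 0.0034 to 0.61). In this list 10 of 11 genes lay above the wild-type range in knockout library 1, 10 of 11 in knockout library 2 and 1 of 11 in knockout library 3. Over all genes tested those shares were 56.5%, 55.2% and 9.52%. Foxo3, a forkhead factor that induces p27 and was chosen after its values were seen, was at 50.01, 41.9 and 8.95 TPM in the knockout and 7.82, 9.17 and 8.79 TPM in the wild type (log2 fold change 1.54, adjusted p = 0.27, and 2.29 without knockout library 3, adjusted p = 0.00028, over 17 alternatives 0.00028 to 0.69).

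Of the genes that E2F induces at G1/S, 19 were tested, and 2 were called higher and 0 lower, against 0.0710% and 0.319% of all genes. With all libraries 18 of 19 had positive log2 fold changes (median 0.67), against 6464 of 11268 over all genes (median 0.09). Much of this came with knockout library 3: without it 14 of 19 were positive, the median was 0.31 against 0.26 over all genes, and 7 of 19 were called higher, where 33.8% of all genes were. The list median of log2(TPM + 1) minus the wild-type mean was 0.41, 0.16 and 1.23 in knockout libraries 1, 2 and 3, where the medians of all genes were 0.27, 0.24 and -0.29. The called genes were Uhrf1 (log2 fold change 2.39, adjusted p = 0.014, and 2.52 without knockout library 3) and Chaf1b (1.51, adjusted p = 0.045, and 1.38 without knockout library 3), which serve DNA methylation and chromatin assembly behind the replication fork. Uhrf1 stood at 17.4, 16.4 and 12.7 TPM in the knockout, against 1.74, 2.09 and 2.59 TPM in the wild type, and Chaf1b at 4.22, 5.42 and 6.64 TPM in the knockout, against 1.15, 1.18 and 1.36 TPM in the wild type. Neither gene's groups overlapped. The call was lost in 5 of 17 alternatives for Uhrf1 and in 12 of 16 for Chaf1b, with adjusted p from 0.00022 to 0.15 and from 0.00074 to 0.26. Groups did not overlap for 10 of the 19, all higher in the knockout, against 5.42% of all genes in that direction. Knockout library 3 was the highest of all 6 libraries for 17 of the 21 genes measured, against 3.73% of all genes tested. Pcna, the replication clamp and an example chosen after its values were seen, stood at 56.4, 63.2 and 101.4 TPM in the knockout and at 43.0, 38.9 and 46.9 TPM in the wild type (log2 fold change 0.72, adjusted p = 0.25, and 0.47 without knockout library 3, adjusted p = 0.032, over 17 alternatives 0.032 to 0.67).

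Genes of cycling cells after G1 were high in knockout library 3 and low in the other 5. All 11 of this list were highest in knockout library 3, and their summed level was 8.60, 4.78 and 74.0 TPM in knockout libraries 1, 2 and 3, against 6.32, 6.47 and 7.92 TPM in wild-type libraries 1, 2 and 3. Mki67, the common mark of cycling cells and an example chosen after its values were seen, was at 0.890, 0.504 and 10.3 TPM across the knockout libraries and at 0.655, 0.719 and 0.743 TPM across the wild-type libraries. Only 3 of the 11 passed the filter, since 1 library cannot meet it, and 0 of these were called (1 at an unadjusted p under 0.05). Plk1, a kinase of mitotic entry, was the gene with the lowest p (log2 fold change 0.79, adjusted p = 0.23, and 0.51 without knockout library 3, adjusted p = 0.058, over 16 alternatives 0.057 to 0.68), and it too passed the filter through the knockout libraries alone. Knockout library 3 was thus the library with the most E cyclin and mitotic transcript and the least Cdkn1b, and it had more Ccnd1 than the other knockout libraries.

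**Figure D4:**
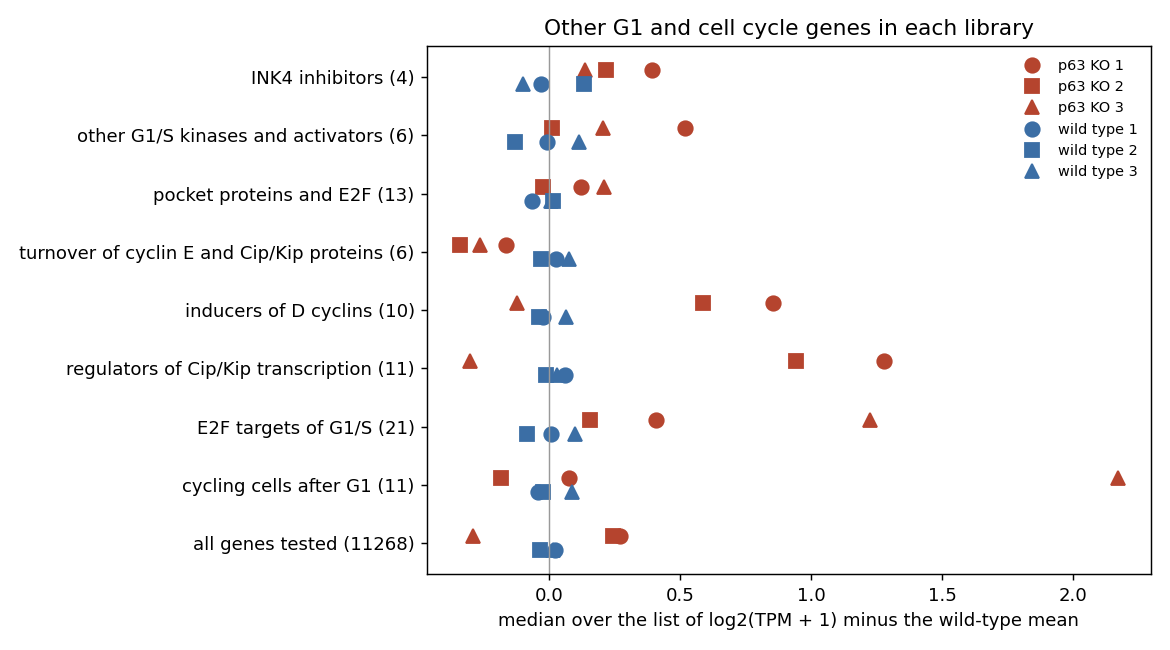
For each list of other G1 and cell cycle genes, the median over the list of log2(TPM + 1) minus the wild-type mean, in each p63 knockout library (red) and wild-type library (blue), with the number of genes in brackets and symbols for replicates. The regulators of Cip/Kip transcription lie at 1.28 and 0.94 in knockout libraries 1 and 2 and at -0.30 in knockout library 3, while genes of cycling cells after G1 lie at 2.17 in knockout library 3 and at 0.08 and -0.18 in knockout libraries 1 and 2.

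Markers of several other cell types also differed between knockout and wild type. In bulk RNA, fewer cells of a type and less RNA per cell cannot be told apart. Basal and progenitor markers summed to 48.2 to 89.6 TPM in the knockout and 187 to 211 TPM in the wild type (6 of 7 tested genes with lower, non-overlapping knockout values). Over all genes tested that share was 15.6%, and the counts in brackets below are of the same kind. For myoepithelial markers the sums were 184 to 299 TPM in the knockout and 501 to 551 TPM in the wild type (6 of 6 genes). Fibroblast markers summed to 129 to 268 TPM in the knockout and 277 to 355 TPM in the wild type (4 of 6 genes), and macrophage markers to 129 to 199 TPM in the knockout and 330 to 334 TPM in the wild type (4 of 7 genes). The leukocyte genes Ptprc and Cd52 were lower in every knockout library, at 1.39 to 1.61 and 3.59 to 7.79 TPM in the knockout, against 2.13 to 3.05 and 17.6 to 19.4 TPM in the wild type. Neural sums were 2.29 to 4.66 TPM in the knockout and 5.31 to 7.19 TPM in the wild type (2 of 3 genes). Endothelial sums were 18.1 to 26.4 TPM in the knockout and 26.7 to 31.5 TPM in the wild type (4 of 6 genes), so these sums were barely apart. Pecam1 and Cdh5 of this list had positive log2 fold changes (0.21 and 0.16, adjusted p = 0.69 and 0.78). Granular convoluted tubule markers summed to 17997 to 39863 TPM in the knockout, against 85916 to 101987 TPM in the wild type (5 of 6 genes). Klk1 of this list had a higher mean in the knockout, with overlapping groups. It was at 12563, 6315 and 10537 TPM across the knockout libraries and 4526, 6390 and 5004 TPM across the wild-type libraries. Acinar markers summed to 187716 to 240110 TPM in the knockout, against 134623 to 156892 TPM in the wild type. The acinar sum was carried by Prol1 and Pip, the genes of this list with higher, non-overlapping knockout values, while 5 of its 9 genes had a lower mean in the knockout. Prol1 was barely apart, at 85790 TPM in knockout library 3 against 85772 TPM in wild-type library 2 (log2 fold change 0.48, adjusted p = 0.37). For each of these lists the knockout and wild-type sums did not overlap, as for Ccnd1, Ccnd2 and Cdk4, and their part in the cyclin values was not tested. Sums of general epithelial markers overlapped, at 640 to 1635 TPM in the knockout and 831 to 957 TPM in the wild type, with knockout library 3 the lowest. Smooth muscle and pericyte sums overlapped too, at 8.71 to 13.8 TPM in the knockout and 12.45 to 15.1 TPM in the wild type. So did adipocyte sums, at 26.3 to 192 TPM in the knockout and 66.2 to 221 TPM in the wild type.

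The genes closest in profile to Ccnd2 and Ccne1, which had the lowest p of the 8, were found by the root mean square difference of centred log2(TPM + 1) over the 6 libraries. For Ccnd2 they were Kctd12, Lsp1 and Vkorc1, at differences of 0.05, 0.07 and 0.08. Kctd12, the nearest, was at 3.36, 2.87 and 4.45 TPM across the knockout libraries and at 7.88, 6.70 and 7.42 TPM across the wild-type libraries. Lsp1, a leukocyte actin-binding protein gene, was at 1.31, 1.07 and 1.74 TPM across the knockout libraries and at 4.27, 3.35 and 3.62 TPM across the wild-type libraries. Vkorc1 was at 20.8, 18.3 and 29.5 TPM in the knockout and 48.3, 46.65 and 42.9 TPM in the wild type. For Ccne1 they were Arhgap11a, Slc38a1 and Fen1, at 0.14, 0.14 and 0.15. Arhgap11a, the nearest, stood at 2.57, 1.12 and 3.72 TPM across the knockout libraries, against 0.554, 0.694 and 0.811 TPM across the wild-type libraries. Slc38a1 stood at 11.9, 10.1 and 14.4 TPM in the knockout, against 5.95, 4.49 and 5.335 TPM in the wild type. Fen1, the flap endonuclease gene of DNA replication, stood at 11.9, 8.86 and 14.5 TPM across the knockout libraries, against 6.20, 5.29 and 7.25 TPM across the wild-type libraries.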

How the data were processed

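Epithelial cells were isolated and RNA was taken with a Direct-zol kit and a TruSeq library kit, per the labels. The deposited values are TPM, in which counts were normalized for gene length and library size, per the labels, and each column sums to 1000000. Per the submitters' processing notes the authors used mm9, DESeq2 1.20.0, featureCounts 1.5.1, Bowtie2 2.2.6 and TopHat2 2.1.1, with no roles given. The gene annotation was not given in the sources used here. Because TPM keeps no depth, counting error is unknown and the precision of each value is the spread over 3 libraries a group.

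Replicates were numbered within each genotype. Values were transformed to log2(TPM + 1), and 11268 genes reaching 1 TPM in 3 or more libraries were fitted with limma 3.58.1 (mean-variance trend, two-sided, Benjamini-Hochberg) in R 4.3.3, without a block. These fold changes understate the change of low genes. An exact two-sided permutation test of 3 libraries against 3 cannot go below p = 0.1, which was reached by each gene whose groups did not overlap. The procedure was tested on simulated data. The members and lists were chosen with earlier results of these data known. All 10 members were named, with the genes of each further list that passed or had the lowest p, and the 3 genes nearest in profile to the 2 members with the lowest p. The 17 alternatives changed the pseudocount, the filter, the scaling or the limma settings, added a replicate block, or left out each library in turn. The sum of the lymphocyte marker list is not reported here. Figures were drawn with matplotlib 3.10.9.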

Additional observations from a re-analysis of the deposited data

How the results depend on the processing

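No alternative turned the direction of any of the 8 tested members, and 15 of 17 alternatives gave 0 called members. The exceptions were array weights (8) and the fit without knockout library 3 (7), so that leaving out 1 library gave 0 to 7. The number of all genes called moved from 44 to 25 with 0.1 TPM added, 11 with no filter, 29 with the filter of 5 TPM, 72 under quantile normalization and 4822 under array weights, and to between 0 and 5127 when 1 library was left out. Those counts were 11, 16 and 5127 without knockout libraries 1, 2 and 3, and 1, 0 and 0 without wild-type libraries 1, 2 and 3 (879, 1024 and 1020 at an unadjusted p under 0.05). The causes were not tested. Array weights gave knockout library 3 a weight of 0.09, against 0.76 to 2.76 for the others, and moved the median of all genes by 0.15. No scaling alternative moved that median by over 0.1.

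The labels give no replicate numbers shared between genotypes, but index numbers in the titles lie side by side across them. Deviations from the group means correlated at 0.17, 0.23 and 0.08 across these neighbours over genes, and each of the 3 knockout libraries correlated best with its own neighbour, a hint from the data and not the design. A replicate block on these neighbours gave 31 calls in all genes and 0 among the members. Ccne2 and Cdk6 could be fitted only with no filter, where their log2 differences stayed at 0.53 and -0.08. The filter of 5 TPM left out Ccnd2, Ccne1, Cdkn1a and Cdkn1c.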
